A study of Rattus norvegicus with 19 samples.

Results

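The insulin-like growth factors, their receptors and their binding proteins were followed in rat motor cortex through 9 genes: Igf1, Igf2, Igf1r, Igf2r, Igfbp2, Igfbp3, Igfbp4, Igfbp5 and Igfbp6. All probe sets annotated to these symbols alone were taken, which gave 22 of the 31042 probe sets tested, and 9 of the 14217 genes that had a symbol of their own. A probe set is the group of short array probes from which 1 level is computed. The genes were chosen by family, and Igfbp6 was also selected on its measured levels, since both of its probe sets peak at day 1, so it is described with no test. The other 20 probe sets, of 8 genes, were tested.

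All rats were adult female Fischer 344 animals. The lesion groups had a cut through the dorsal columns of the spinal cord at cervical level 3, made with a wire knife after a laminectomy, and the deep part of their motor cortex, for forelimb and hindlimb together, was dissected because it holds the layer V neurons whose axons run in the dorsal columns. There were 4 control arrays, labelled as time 0, and 3 arrays each at day 1, day 3, day 7, day 14 and day 49 after the lesion. Neither a sham operation in controls nor the number of animals behind an array is stated. Samples are named as separate, so p-values measure the spread between these samples.

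Insulin-like growth factors are secreted hormones that also act locally in brain, where they support the survival and growth of neurons and glia. Igf1r is the tyrosine kinase receptor that passes on the signal of both ligands, whereas Igf2r, the mannose 6-phosphate receptor, mainly takes up Igf2 for breakdown. The binding proteins hold the ligands outside the cell, prolong or block their action, and differ in preference, Igfbp6 being the member that favours Igf2.

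The stretches just before the transcription start are shown for Igfbp6, the member highest at day 1, and for Igf1 and Igfbp5, the members lowest at day 1 relative to control. Each holds the 250 bases before the start, 5′ to 3′, from RefSeq on GRCr8, in which all 9 genes had an entry. Igfbp6 lies at chr7:135154669-135154918 on the plus strand, Igf1 at chr7:24172282-24172531 on the plus strand and Igfbp5 at chr9:81914188-81914437 on the minus strand. Capitals mark the E box, CANNTG, and TGTTCT, the core of sites for the glucocorticoid receptor, each searched on both strands.
Igfbp6: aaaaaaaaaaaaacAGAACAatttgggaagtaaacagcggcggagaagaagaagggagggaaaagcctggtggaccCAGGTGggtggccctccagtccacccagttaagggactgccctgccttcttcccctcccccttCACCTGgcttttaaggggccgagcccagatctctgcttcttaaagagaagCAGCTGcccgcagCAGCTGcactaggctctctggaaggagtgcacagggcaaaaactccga
Igf1: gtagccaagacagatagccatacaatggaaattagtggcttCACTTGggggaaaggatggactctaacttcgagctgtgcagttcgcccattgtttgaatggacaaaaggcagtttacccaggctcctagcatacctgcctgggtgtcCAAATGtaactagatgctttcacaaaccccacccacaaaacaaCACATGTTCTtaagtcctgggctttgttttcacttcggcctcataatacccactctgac
Igfbp5: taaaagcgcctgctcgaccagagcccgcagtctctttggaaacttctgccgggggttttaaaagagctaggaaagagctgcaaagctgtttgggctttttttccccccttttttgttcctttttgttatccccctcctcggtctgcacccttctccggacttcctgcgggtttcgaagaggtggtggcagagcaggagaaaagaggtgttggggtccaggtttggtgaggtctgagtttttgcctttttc
The Igfbp6 stretch held 4 E boxes, which began at positions -174, -111, -61 and -48 from the start, and TGTTCT on the other strand at -236. In Igf1 there were 3 E boxes, and the one at -59 shared letters with the TGTTCT match at -55. None of these letters occurred in the Igfbp5 stretch. Of the members not shown, Igf2r also held 4 E boxes, and its probe set 1386872_at had a mean of 6.80 in control and at day 1. Igfbp2, Igfbp3 and Igfbp4 held 2 E boxes each, Igf1r held 1 and Igf2 held 0. Of 33469 promoter stretches of this length, 65.5% held at least 1 E box, 3.20% held 4 or more, and 17.5% held TGTTCT. A match describes the letters and is not a site that was shown to be bound.

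Most arrays were closely alike. In 17 of the 19 the median correlation with the other arrays was between 0.994 and 0.997, against 0.931 in day 14 replicate 2 and 0.968 in day 49 replicate 2. As a sign of RNA quality, the log2 signal of beta-actin at its 3′ end exceeded that at its 5′ end by 2.24 in day 14 replicate 2, by 0.845 in day 49 replicate 2 and by 0.877 to 1.29 in the 17. Differences from control at days 14 and 49 that the text turns on are therefore given with and without these 2 arrays. Markers of layer V neurons had a mean log2 level over 9 genes of 8.31 ± 0.03 (SD between arrays, n = 4) in control. Single genes ranged from 4.27 for Fezf2 to 12.9 for S100a10, with Diaph3 at 4.91 and Bcl11b at 5.70. Whether each transcript was present was not tested. All values below are log2 signals, and levels of different probe sets are not compared.

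Igfbp6 had the largest day 1 difference from control among the 22 probe sets. Its brighter probe set, 1372168_s_at, a type that can match more than 1 transcript, read 10.09, 10.17, 9.90 and 9.91 in the control arrays. At day 1 it read 10.80, 11.02 and 10.82. The 3 day 1 arrays lay above each of the other 16 arrays. The mean was 10.88 at day 1 against 10.02 in control, a difference of 0.86 (SE 0.12), or 1.82-fold. The second probe set, 1387625_at, read 9.84, 9.80, 9.61 and 9.75 in control and 10.46, 10.76 and 10.51 at day 1, which gave 0.83 (SE 0.17), or 1.78-fold. Both probe sets thus placed every day 1 array above every control array. Of all 31042 probe sets, 4.4% had day 1 arrays that lay above all controls, and 0.029% passed as higher in the limma test at an adjusted p under 0.05. Since the day 1 peak chose this gene, nothing is read from these shares. In tissue RNA of this kind, a change in the number of cells that carry a transcript and a change of RNA per cell cannot be told apart.

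After day 1 Igfbp6 lay below control before it came back to control levels. Probe set 1372168_s_at read 9.72, 9.66 and 9.76 at day 3 and 9.64, 9.80 and 9.87 at day 7. These 6 arrays were all below the lowest control, with mean differences from control of -0.30 (SE 0.12) at day 3 and -0.25 (SE 0.12) at day 7. Probe set 1387625_at gave 9.38, 9.32 and 9.61 at day 3 and 9.31, 9.48 and 9.53 at day 7, with differences of -0.31 (SE 0.17) at both times. They too lay below each control, although the highest day 3 array and the lowest control both round to 9.61. Of all probe sets, 2.82% had day 3 arrays below every control and 4.19% had day 7 arrays below every control. From day 1 to day 3 the level differed by -1.17 (SE 0.13) in the first probe set and by -1.14 (SE 0.18) in the second, both measured against the same day 1 arrays that gave the peak.

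At the late times Igfbp6 overlapped with control. Probe set 1372168_s_at ranged from 9.77 to 10.25 at day 14 and read 9.79, 10.10 and 10.20 at day 49. Ordered by its mean, day 1 stood first, followed by day 49 at 10.03, control at 10.02, day 14 at 0.01 below control, day 7 at 9.77 and day 3 at 9.71. Without the arrays that stand apart the mean was 9.99 at day 49 and 9.88 at day 14, so that control came second and the difference from control was -0.02 at day 49 and -0.13 at day 14. Only day 1 was separated from its neighbour in the order over all arrays, and each of the other neighbours overlapped. The second probe set read 9.66, 8.73 and 9.56 at day 14 and 9.51, 9.69 and 9.72 at day 49. Here day 14 replicate 2 was the lowest of all 19 arrays, while in the first probe set the same array was the highest outside day 1. The day 14 difference of 1387625_at was -0.43 with this array and -0.14 without both arrays that stand apart. The Pearson correlation of the 2 probe sets was 0.98 over the 17 arrays and 0.79 over all 19.

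**Figure D1:**
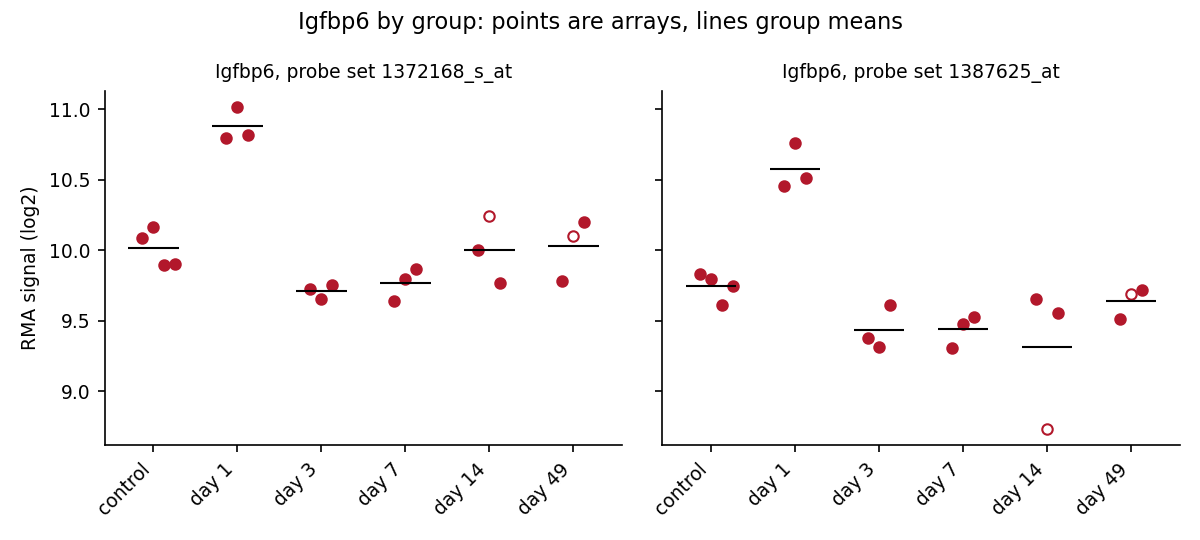
Log2 signal of the 2 Igfbp6 probe sets (vertical axis) in control and at 5 times after the lesion. Points are arrays, lines are group means, and open circles are the 2 arrays that stand apart from the rest. All 3 day 1 arrays are above all others in both panels, the day 3 and day 7 arrays are below the controls, and the open circle at day 14 is high in the left panel and low in the right.

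The mean levels of some cell type marker lists also stood higher at day 1. The mean over 9 astrocyte markers was between 6.63 and 6.75 at day 1 and between 6.38 and 6.47 in control, with 7 of 9 genes higher, of which Agt passed the test. The median difference of these genes was only 0.04. The mean rested mostly on Agt at 1.04, Gfap at 0.64 and Gjb6 at 0.40. The mean over 12 microglial markers was between 5.97 and 6.19 at day 1 against 5.83 to 5.93, with 8 of 12 higher and none past the test. Their median difference was 0.12, and 4 were lower, among them Aif1 and P2ry12, both at -0.34. Endothelial and mural markers had a mean between 6.70 and 6.84 against 6.60 to 6.69, with 10 of 13 higher, a median difference of 0.11 and none past the test. These 3 list means did not overlap between day 1 and control, nor, narrowly, did that of 9 interneuron markers, at 7.15 to 7.28 against 7.05 to 7.15. Meningeal fibroblast markers did overlap, with 8.12 to 8.59 against 8.23 to 8.52 and 7 of 15 higher, of which Crabp2 passed. In the same list Lum was lower by 0.93, with a limma adjusted p of 0.192, or 0.041 without the arrays that stand apart. The means of the choroid plexus, oligodendrocyte and layer V lists overlapped with control as well. Over all probe sets, 53.3% were higher at day 1, with a median difference of 0.01. No marker is at 0, since the authors' log2 values have no zero. The part of these cells in the Igfbp6 level was not tested.

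Igfbp5 lay on the opposite side at day 1. This binding protein attaches to the extracellular matrix. Its brightest probe set, 1370960_at, read 8.49, 8.60, 8.19 and 8.47 in control and 7.33, 7.36 and 8.21 at day 1. Replicates 1 and 2 of day 1 were below every other array, and replicate 3 was within the control range. The difference of -0.80 (SE 0.25) had a limma p of 0.0053 before adjustment and an adjusted p of 1.00 over all probe sets, or 0.311 without the 2 arrays that stand apart. Without day 1 replicate 3 the difference was -1.09, and without day 1 replicate 1 it was -0.65. At day 3 the arrays read 8.24, 7.85 and 8.37 and at day 7 they read 7.96, 8.14 and 8.80, which overlapped with control.

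The other 4 Igfbp5 probe sets did not all share this pattern. At day 1 1396152_s_at differed from control by -0.46 (SE 0.21, limma adjusted p = 1.00) and 1387348_at by -0.37 (SE 0.28). The remaining pair, 1397830_at and 1387347_at, stood at -0.09 and 0.07. Over the 17 arrays 1370960_at correlated with 1396152_s_at at 0.78, with 1387348_at at 0.75, with 1397830_at at 0.52 and with 1387347_at at 0.14. At day 49, 1387347_at was higher than control by 0.55 and 1397830_at by 0.50. Those values rested on day 49 replicate 2, at 7.20 and 6.45, and were 0.12 and 0.05 once both arrays that stand apart were left out. Probe set 1387348_at read 6.66, 7.36 and 7.53 at day 49 against 6.83, 7.23, 5.95 and 6.86 in control, which overlapped. It was higher by 0.46 (SE 0.28, limma adjusted p = 0.389), or by 0.38 without the arrays that stand apart, the highest day 49 value of the 20 tested probe sets in that fit.

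The remaining binding proteins stayed nearer to control. Igfbp2, the main binding protein of the cerebrospinal fluid, read 8.68, 8.77, 8.85 and 8.62 in control and 8.77, 8.97 and 9.08 at day 1. A day 1 array lay within the control range and the other 2 above it, a difference of 0.21 (SE 0.17, limma adjusted p = 1.00). Outside day 14 replicate 2, at 7.90, its arrays spanned 8.60 to 9.08. Igfbp3, the chief carrier of the ligands in blood, had day 1 differences of 0.14 and 0.09 in its 2 probe sets. Its dimmer probe set, 1386881_at, read 6.07, 6.25, 6.19 and 6.09 in control, 6.33, 6.24 and 6.17 at day 1 and 6.08, 5.97 and 5.92 at day 3. The day 3 arrays lay below all day 1 arrays, a difference of -0.25 with a limma adjusted p of 1.00 (0.371 without the arrays that stand apart). Igfbp4, which mostly blocks ligand action, read 6.92, 6.86, 6.93 and 6.97 in control and 7.03, 7.30 and 7.12 at day 49. Every day 49 array lay above every control, by 0.23 on average (SE 0.13, limma adjusted p = 0.356), or by 0.16 without the arrays that stand apart.

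Of the ligands, Igf1 was the one below control at day 1. Probe set 1388469_at read 5.80, 5.58, 5.57 and 5.66 in control and 4.65, 4.73 and 5.44 at day 1. All 3 day 1 arrays lay below all controls, replicate 3 again the nearest to them. The difference was -0.71 (SE 0.31), with a limma p of 0.0374 before adjustment and an adjusted p of 1.00 (0.384 without the arrays that stand apart). Probe set 1382599_at read 3.67, 3.58, 3.46 and 3.92 in control and 3.22, 3.23 and 3.53 at day 1, a difference of -0.33 (SE 0.11, limma adjusted p = 1.00). There day 1 replicate 3 was within the control range. The brightest Igf1 probe set, 1370333_a_at, differed by -0.17 (SE 0.20) and its groups overlapped. At day 3 the 3 probe sets stood at 0.10, -0.19 and -0.06 relative to control. At day 14 1388469_at was higher by 0.59, which rested on a reading of 7.09 in replicate 2 and was 0.16 once both arrays that stand apart were left out. At day 49 it read 5.03, 4.72 and 5.69, lower by 0.50 (SE 0.31, limma adjusted p = 0.395). This was the lowest day 49 value of the 20 tested probe sets, and it was -0.29 with both arrays that stand apart left out.

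Igf2, which in adult brain comes mainly from the meninges and choroid plexus, had no probe set with a day 1 difference above 0.12. Its brightest probe set, 1367571_a_at, read 7.41, 7.36, 7.66 and 7.23 in control and 7.29, 7.61 and 7.70 at day 1. Within the groups it spread widely, from 7.03 to 8.18 at day 49. The 3 dimmer probe sets had control means between 3.88 and 4.39. Among them 1371206_a_at was higher than control at day 49 by 0.31 (SE 0.10, limma adjusted p = 0.306), or by 0.18 without the arrays that stand apart. Its day 49 arrays read 4.16, 4.68 and 4.42 and overlapped with control, where the highest was 4.17.

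The receptors stayed near control through day 7. Igf1r, by probe set 1392492_at, read 7.43, 7.35, 7.53 and 7.33 in control, 7.53, 7.30 and 7.05 at day 1 and 7.48, 7.63 and 7.48 at day 3. Igf2r, by 1386872_at, read 6.91, 6.59, 7.09 and 6.60 in control, 6.92, 6.76 and 6.71 at day 1 and 7.27, 6.84 and 6.88 at day 3. Across days 1, 3 and 7 the 4 receptor probe sets differed from control by between -0.12 and 0.20, and the groups overlapped in each of them. At day 49 Igf1r 1392492_at read 7.47, 6.74 and 6.94, lower by 0.36 (SE 0.14, limma adjusted p = 0.306). Igf2r 1386872_at then read 6.95, 5.58 and 6.39, lower by 0.49 (SE 0.23, limma adjusted p = 0.325). These differences were -0.21 and -0.13 once both arrays that stand apart were left out.

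**Figure D2:**
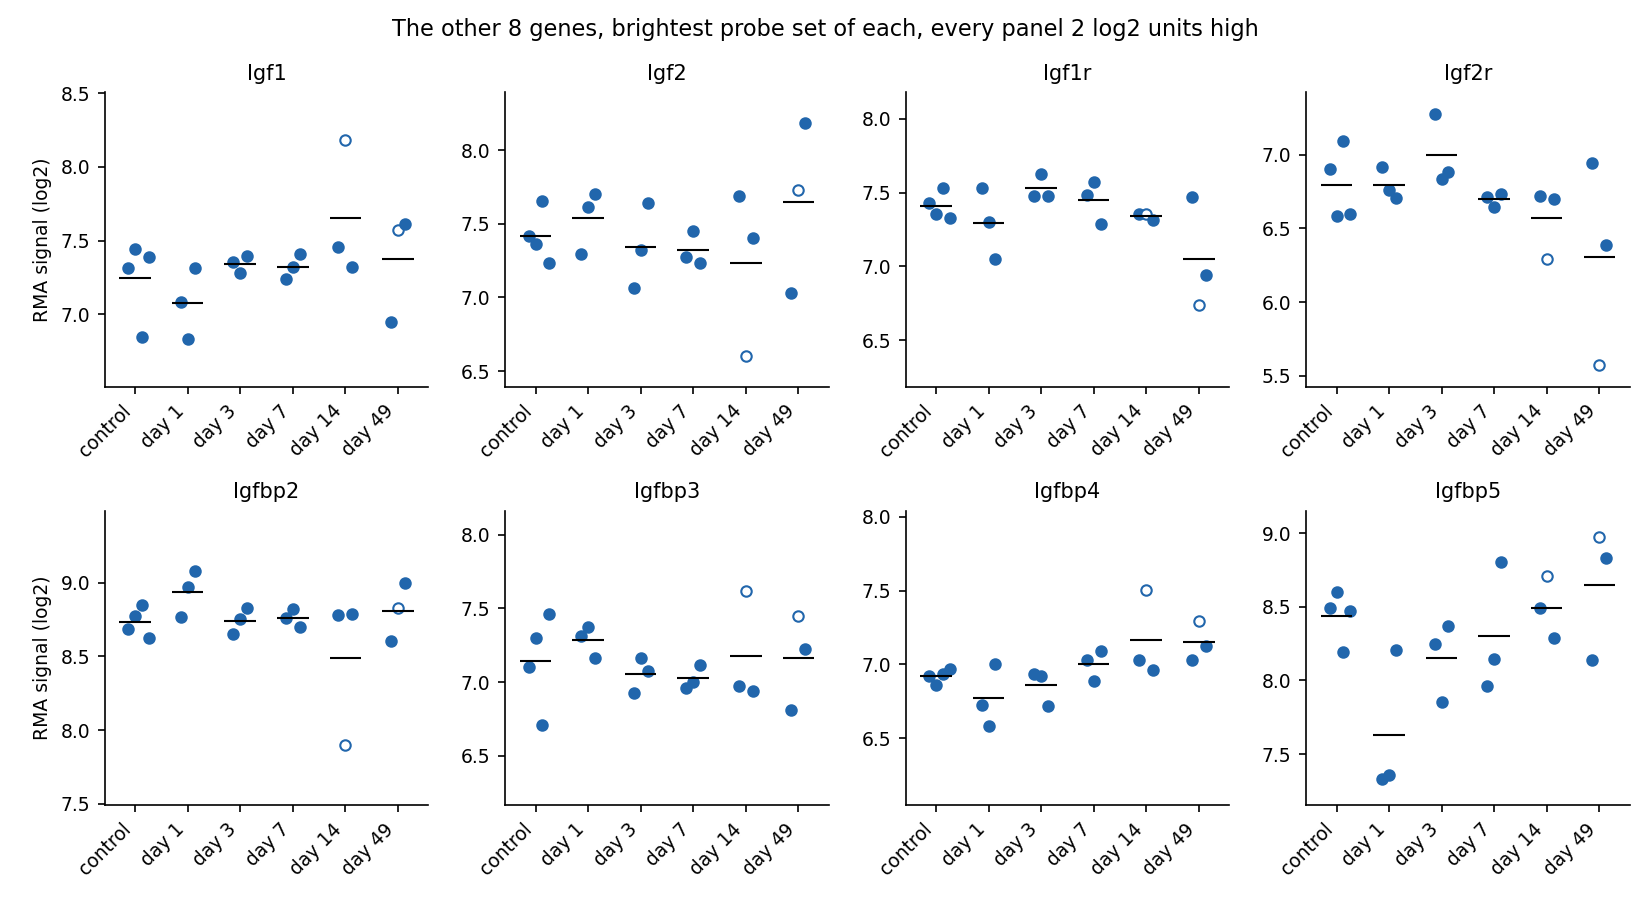
Log2 signal of the brightest probe set of each of the other 8 genes by group; every panel spans 2 log2 units. Points are arrays, lines are group means and open circles are the 2 arrays that stand apart. The day 1 arrays of Igfbp5 include 2 that are far below the controls and 1 within their range, and the day 1 arrays of the other genes overlap with the controls. Among the filled points at day 49, those of Igf2 are at 7.03 and 8.18. Igf1r has a filled point at 6.94 and Igf2r at 6.39 at day 49, each below all controls.

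None of the 20 tested probe sets passed limma at an adjusted p under 0.05 in any comparison. At day 1 that was 0 of 20 beside 11 of 31042 in the whole table (0.0354%), and before adjustment 4 of 20 had a p under 0.05, beside 1.64% of all. Those 4 belong to Igf1 and Igfbp5 and are not independent. At day 1, 1 of 20 had arrays below all controls (Igf1 1388469_at), beside 2.54% of all, and none had arrays above all controls, beside 4.4%. Each comparison with control uses the same 4 control arrays. The day 1 differences were positive in 10 and negative in 10, with a median of 0.03, against 0.01 over all probe sets. Their standard errors were between 0.08 and 0.31.

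Later counts were as low. At day 3 none of 20 passed, beside 0% of all, nor did any have a p under 0.05 before adjustment, beside 0.908%. At days 3, 7 and 14 none of 20 had arrays clear of all controls, beside 2.65%, 2.86% and 6.43% of all that lay higher and 2.82%, 4.19% and 2.62% that lay lower. Day 7 gave 0 of 20 by both rules, beside 0% and 0.886%, and day 14 gave 0 of 20 by both, beside 0% and 13.1%. Day 49 gave 0 of 20 beside 0%, and 4 of 20 before adjustment beside 15.4%; 1 of 20 lay above all controls (Igfbp4) beside 5.27%, and none below beside 4.8%. Those 4 were Igf2 1371206_a_at, Igf2 1388252_at, Igf1r 1392492_at and Igfbp5 1387347_at, of which the first alone kept a p under 0.05 before adjustment without the arrays that stand apart. From day 1 to day 3, 0 of 20 passed beside 0.0258%, and 1 of 20 before adjustment (Igf1 1382599_at, 0.27 higher at day 3) beside 1.85%. Between these times 1 of 20 lay wholly higher at day 3 (again Igf1 1382599_at) beside 7.03%, and 2 of 20 wholly lower (Igf2 1388252_at and Igfbp3 1386881_at) beside 8.89%. The F test over the 5 differences from control passed 0 of 20 beside 0.0129%, and 2 of 20 before adjustment (Igf1 1388469_at and Igfbp5 1370960_at) beside 4.41%. Without the arrays that stand apart 0 of 20 passed at day 1 beside 0.219%, 0 from day 1 to day 3 beside 0.203%, 0 in the F test beside 0.135%, and 0 at the later times beside 0%. With array weights, which give less weight to arrays that are far from their group, Igf1 1388469_at and Igfbp5 1370960_at passed at day 1, with limma adjusted p of 0.0458 and 0.0154. That was 2 of 20 beside 0.564% of all probe sets under the same weights. Array weights gave 4 of 20 at day 49 beside 21%, 1 from day 1 to day 3 beside 1.58%, 2 from day 14 to day 49 beside 9.62% and 9 in the F test beside 20.7%. Without day 49 replicate 1 there were 3 of 20 at day 49 (Igf2 1371206_a_at, Igf1r 1392492_at and Igf2r 1386872_at) beside 7.84%.

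**Figure D3:**
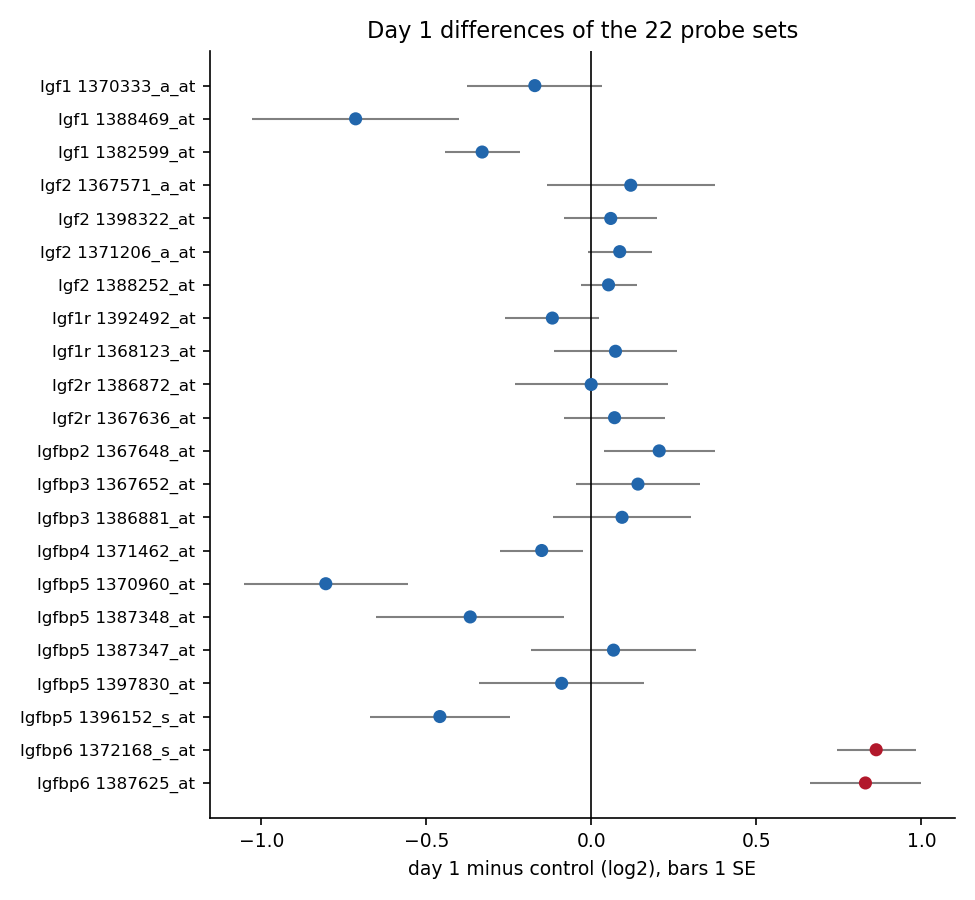
Day 1 minus control on the log2 scale for the 22 probe sets; points are limma estimates and bars are 1 standard error. The 2 Igfbp6 probe sets are at 0.86 and 0.83, Igfbp5 1370960_at is at -0.80 and Igf1 1388469_at at -0.71, and most of the others are within 1 standard error of 0.

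Across arrays some members varied together. The brightest probe sets of the 9 genes were compared in 36 pairs over the 17 arrays, with permutation p-values adjusted over the pairs, and 3 pairs passed. Igf2 and Igfbp2 had a Pearson r of 0.82 (adjusted permutation p = 0.0022) and a Spearman rho of 0.89 (adjusted permutation p = 0.00036). The r was 0.76 without the 2 arrays farthest from the median of Igf2, and 0.91 for deviations from the group means (adjusted permutation p = 0.00036). Arrays of 1 group that were high in Igf2 were thus also high in Igfbp2. Deviations were permuted over all 17 arrays although they add to 0 within each group, so permutation p-values for deviations tend to be too small. In day 1 replicates 1, 2 and 3, for instance, Igf2 read 7.29, 7.61 and 7.70 while Igfbp2 read 8.77, 8.97 and 9.08.

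Igf1 and Igfbp5 formed the second pair, with r of 0.72 (adjusted permutation p = 0.0286) and rho of 0.86 (adjusted permutation p = 0.0009). It was 0.73 without the 2 arrays farthest from the median of Igf1 and 0.76 for deviations from the group means (adjusted permutation p = 0.0031). Replicates 1 and 2 of day 1 were below every other array in Igfbp5. In Igf1, by 1370333_a_at, they read 7.08 and 6.83, where control spanned 6.84 to 7.44, so replicate 1 was within the control range. Igfbp4 and Igfbp5 had r of 0.68 (adjusted permutation p = 0.0417) but rho of 0.42 (adjusted permutation p = 0.263), and the deviations from the group means gave 0.51 with an adjusted permutation p of 0.085. Because the day 1 arrays of Igfbp6 form a cluster of their own, no correlation of it with the other members is given.

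**Figure D4:**
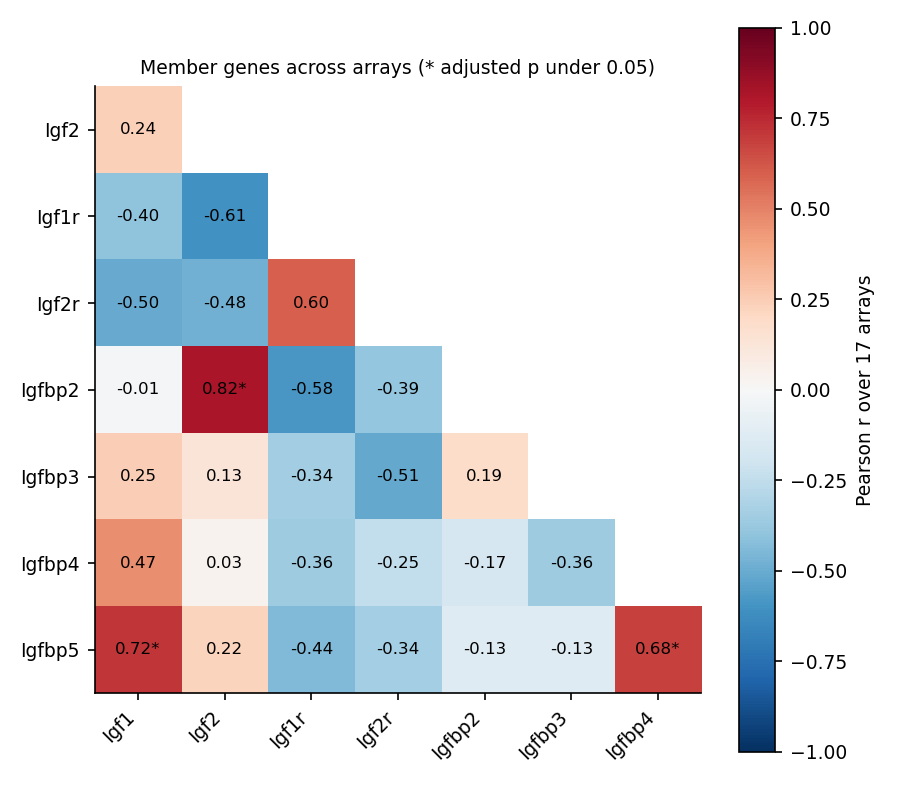
Pearson r between 8 genes, without Igfbp6, over 17 arrays, brightest probe set of each; stars mark a permutation p under 0.05 after adjustment over 36 pairs. The 3 starred pairs are Igf2 with Igfbp2 at 0.82, Igf1 with Igfbp5 at 0.72 and Igfbp4 with Igfbp5 at 0.68.

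The pair of Igf2 and Igfbp2 also followed several marker lists. Igf2 correlated with the mean of the meningeal fibroblast markers at r of 0.72 (rho 0.73, adjusted permutation p = 0.0087 over 72 pairs of gene and list, and 0.0562 for rho). The r was 0.59 without the 2 arrays farthest from the median of the list, 0.78 for deviations from the group means and 0.40 over all 19 arrays. With the choroid plexus list the r of Igf2 was 0.24 (adjusted permutation p = 0.521), and 0.59 over all 19 arrays. Igf2 correlated with the oligodendrocyte list at 0.77 (0.86 over all 19 arrays) and with the microglial list at 0.77 (0.38 over all 19). Igfbp2 correlated with the astrocyte list at 0.73, which was 0.47 without the 2 farthest arrays and -0.16 over all 19. It also passed by r with the oligodendrocyte list at 0.70 (0.79 over all 19) and the microglial list at 0.70 (0.19 over all 19). With the endothelial and mural list the r of Igfbp2 was 0.64 (0.33 over all 19), which passed as well. Igf1r ran the other way, at -0.71 with the meningeal list (-0.48 over all 19) and at -0.74 with the microglial list (-0.24 over all 19). By r 11 of 72 such pairs passed, 2 of them with Igfbp6, from which nothing is read, and by rho 0 of 72. The part of tissue content in the levels was not tested.

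Igfbp5 ran closest to Lum, which encodes the collagen-binding matrix protein lumican. This gene and the other neighbours of Igfbp5 were looked up after the values of Igfbp5 had been seen. Lum read 10.31, 10.31, 10.09 and 10.39 in control and 9.12, 9.09 and 9.83 at day 1. All 3 day 1 arrays of Lum lay below all controls, beside 2.54% of all probe sets. Replicates 1 and 2, the day 1 arrays low in Igfbp5, were the lowest, while replicate 3 was within the control range in Igfbp5 only. The r of Lum with Igfbp5 was 0.94 over the 17 arrays and 0.85 without the day 1 arrays. Next came Mmp2, a collagenase, at 0.92, followed by Aldh1a1, an enzyme of retinoic acid synthesis, at 0.89. Over all 19 arrays Lum was at 0.86, Mmp2 at 0.62 and Aldh1a1 at 0.72.

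**Figure D5:**
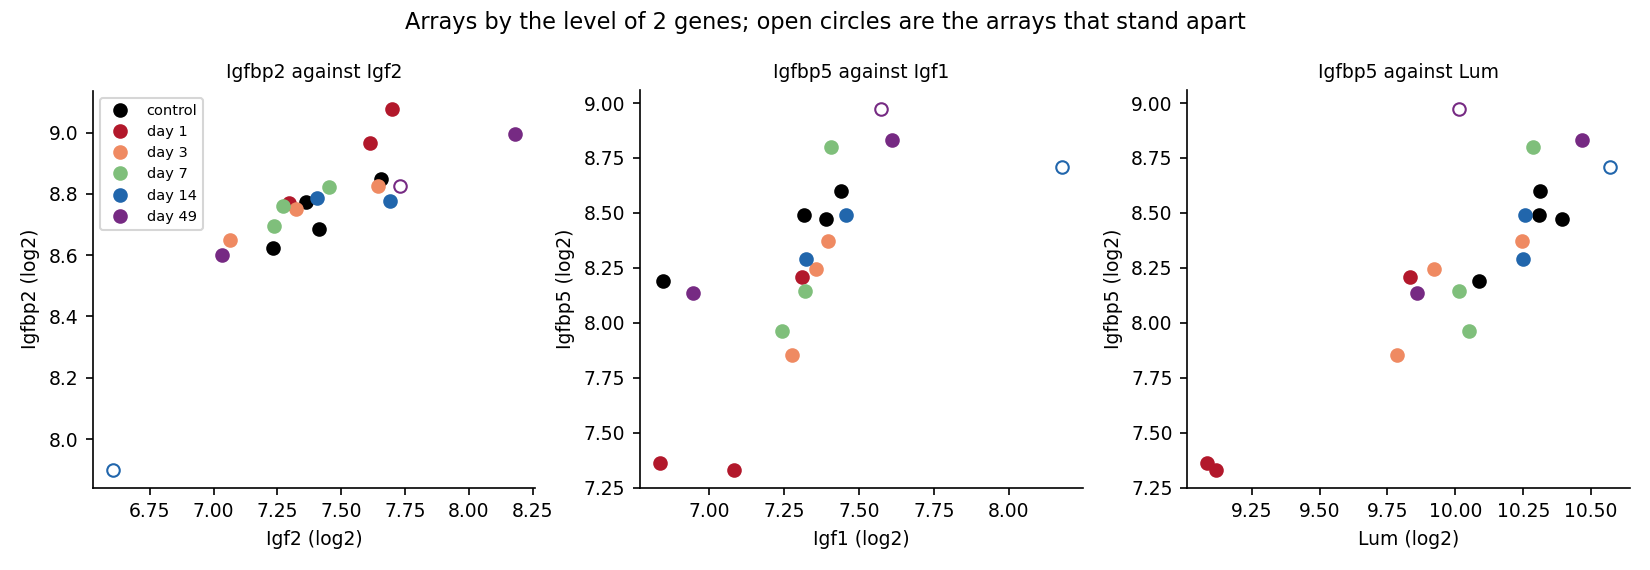
Arrays placed by the log2 level of Igf2 and Igfbp2 (left), Igf1 and Igfbp5 (middle) and Lum and Igfbp5 (right), coloured by group; open circles are the 2 arrays that stand apart. Igfbp2 is higher in arrays with more Igf2, and replicates 1 and 2 of day 1 are at the lower left in both other panels.

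As a description with no test, the genes with a pattern most like that of Igfbp6 were taken by the highest Pearson r with 1372168_s_at over the 17 arrays. They were Steap4, a metal reductase of the cell surface, at 0.96, the matrix protein gene Spon2 at 0.96, the phospholipase Pla1a at 0.92, Mageb10 at 0.91, the interferon-induced Ifitm3 at 0.91, Tmem88 at 0.90, Lbp, which binds lipopolysaccharide, at 0.90 and the transcription factor Cebpd at 0.90. The day 1 arrays set much of this ranking, since without them these correlations were between 0.35 and 0.73. Over all 19 arrays they ranged from 0.44 for Mageb10 to 0.95 for Spon2, with Steap4 at 0.60. Steap4 read 6.22, 6.13, 6.11 and 6.20 in control, 7.08, 7.21 and 7.00 at day 1 and 5.92, 5.53 and 5.90 at day 3, so it too lay above control at day 1 and below it at day 3. Spon2 read 5.72, 5.61, 5.39 and 5.54 in control, 6.25, 6.47 and 6.41 at day 1 and 5.48, 5.52 and 5.58 at day 3, where it overlapped with control. For Igf2 the gene most alike was Ptgds, the prostaglandin D synthase of the meninges, at 0.87, followed by Slco4a1 at 0.87 and Slc22a8 at 0.85, both transporter genes. Over all 19 arrays these values were 0.91, 0.45 and 0.41.

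The wider pathway was read through 5 lists with 55 of 61 genes measured, and none of these genes passed limma in any comparison with control or in the F test. Of all probe sets, 0.0354% passed at day 1, 0% at each later time and 0.0129% in the F test, so nothing particular to these lists is read from this. Among 7 relatives of the binding proteins, Igfbp7, a low-affinity relative from vessels, read 10.91, 10.99, 11.05 and 10.91 in control and 11.06, 11.15 and 11.19 at day 1. It read 10.71, 10.74 and 10.86 at day 3. Its arrays thus lay above control at day 1, by 0.17 (SE 0.14), and below it at days 3 and 7, by -0.19 (SE 0.14) and -0.18 (SE 0.14). Of all probe sets, 4.4% lay above every control at day 1, and 2.82% and 4.19% lay below at days 3 and 7. From day 1 to day 3 Igfbp7 differed by -0.36 with a limma adjusted p of 1.00, or 0.0364 without the arrays that stand apart. Ccn3, a matrix protein of the same superfamily, read 7.34, 7.32, 6.53 and 6.84 in control and 6.08, 5.91 and 6.32 at day 3, a difference of -0.91 (SE 0.20, limma adjusted p = 1.00, or 0.759 without the arrays that stand apart). All of its day 3 arrays lay below all controls, beside 2.82% of all probe sets.

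Among the 5 measured proteases and inhibitors that act on binding proteins, the secreted serine protease Htra1 read 11.29, 11.42, 11.51 and 11.38 in control. At day 1 it read 11.73, 11.85 and 11.71, above every control, beside 4.4% of all probe sets. The difference was 0.36 (SE 0.08) with a limma adjusted p of 0.309, or 0.0222 without the arrays that stand apart. By day 3 it read 11.44, 11.47 and 11.38 and overlapped with control. Pappa2, a protease that cleaves Igfbp3 and Igfbp5, was at 0.03 at day 1 relative to control. Ctsd, a lysosomal protease named after its values were seen, had the largest difference from control of the 55 genes, -1.51 at day 14 (SE 0.71, limma adjusted p = 0.365), which was -0.02 without the arrays that stand apart.

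The signalling lists held no called gene either, beside the same small shares of all probe sets. Of 15 genes of insulin, its receptors and adaptors, 10 were higher and 5 lower at day 1 with a median of 0.01. Of these the rule named Gab1, a docking protein, at 0.01, and Ins1, a rat insulin gene, at 0.09. Of 17 genes of the PI3 kinase, Akt and mTOR route 7 were higher and 10 lower, with a median of -0.02. Pik3r1, the regulatory subunit, was at -0.47 at day 1, 0.35 at day 3 and -0.49 at day 7 relative to control, with a control range from 4.85 to 5.95. Gsk3a, a kinase restrained by Akt, was at 0.13 at day 1. Of 11 genes of the growth hormone axis, which drives Igf1 in liver, 7 were higher and 4 lower, with a median of 0.01. Socs2, a feedback inhibitor of that axis, read 4.56, 4.59, 4.24 and 4.55 in control and 4.64, 4.77 and 4.73 at day 3. It lay above control there by 0.23 (SE 0.11, limma adjusted p = 1.00). Of all probe sets, 2.65% had day 3 arrays above every control. Jak2, the kinase bound to the growth hormone receptor, read 6.27, 6.25, 6.31 and 6.24 in control and 6.13, 5.87 and 6.14 at day 3, a difference of -0.22 (SE 0.16, limma adjusted p = 1.00). Jak2 lesion arrays lay below all controls at each of the 5 times, and by 0.45 on average at day 49 (limma adjusted p = 0.306, or 0.226 without the arrays that stand apart). Of all probe sets, 2.54%, 2.82%, 4.19%, 2.62% and 4.8% lay below all controls at days 1, 3, 7, 14 and 49. These 5 comparisons share the same 4 controls, and Jak2 was named for its small F test p.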

How the data were processed

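RNA from 19 samples of deep motor cortex was labelled with biotin from 6 ug of total RNA each and measured on an Affymetrix rat array. The authors deposited log2 signals made with RMA, according to the submitters' processing notes, which name no version. The method forces the arrays into the same distribution and so hides any global shift in RNA level. Scan dates were not analysed here. The number of arrays limits the precision.

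Of 31099 probe sets, 57 array controls were left out of the tests. Symbols came from the platform annotation, updated by gene ID for 20758 probe sets and by accession for 2; 66 kept the annotation's symbol. In all 20826 had 1 symbol, 436 several and 9780 none here. Groups were taken from the labels. The test was a single two-sided limma 3.58.1 model under R 4.3.3, with a mean for each of 6 groups of the 19 arrays, with Benjamini-Hochberg adjustment over 31042 probe sets and a threshold of 0.05. The fit was tested on simulated data. A gene in a list was represented by its probe set of highest mean. Correlations used 17 arrays and two-sided permutation tests with 100000 resamples, for which 1e-05 is the smallest raw p.

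Members, lists and tests were chosen with earlier results of these data known. All members are named. From each pathway list the rule named genes past the threshold, or else the 2 of smallest F test p; for Igfbp6 the 8 genes most alike and for Igf2 the first of 5. The labels use the same replicate numbers in every group. Deviations from the group means of like-numbered control and day 1 arrays correlated at 0.166, 0.117 and 0.269, each above 0.1. At the other times they did not all pass 0.1. Only like-numbered arrays were compared, so this check cannot show that the numbers pair the arrays. The main model did not pair them. Alternatives were array centring, renewed quantile normalization, a filter on dim probe sets, trended and robust variance moderation, weights per array, the replicate number as a block, a meningeal marker covariate, only the groups compared, no arrays that stand apart, and each array left out. Figures used matplotlib 3.10.9 (Python 3.11.15).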

Additional observations from a re-analysis of the deposited data

How the results depend on the processing

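The day 1 difference of Igfbp6 was between 0.79 and 0.91 for 1372168_s_at and between 0.74 and 0.89 for 1387625_at over all alternatives. The count of other member probe sets past the threshold was 0 in each comparison and stayed 0 under all alternatives but 2. With array weights it was 2 at day 1, 4 at day 49, 1 from day 1 to day 3, 2 from day 14 to day 49 and 9 in the F test, while 0.564%, 21%, 1.58%, 9.62% and 20.7% of all probe sets passed there. Without day 49 replicate 1 it was 3 at day 49, beside 7.84% of all, so leaving out single arrays gave 0 to 3 there and 0 in the other comparisons; the cause was not tested. With the replicate number as a block the count was 0 in every comparison, so the block changed none of these calls. The count of correlated pairs was 3, and it was 6 with all 19 arrays, 7 for deviations from group means and 5 with the mean of all probe sets of a gene. Those 5 include the pair of Igfbp3 and Igfbp6, from which nothing is read, because the day 1 peak chose Igfbp6. Permutation p-values for deviations tend to be too small, so the 7 may be too many. The cause of these changes in the count of pairs was not tested. Of 2989 values of single differences from control under alternatives, 35 moved by more than 1 standard deviation, 34 of them at days 14 and 49, and 149 changed sign, 91 of them at days 1, 3 and 7. Of 635 values of the 23 differences over 0.3 in size, 23 moved by more than 1 standard deviation and 3 changed sign. Array number and the 2 arrays that stand apart limit what can be seen at days 14 and 49.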
